A study of Mus musculus with 2 samples.

Results

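The measurements described here come from 645 probes of a mouse expression array that lie on chromosome 11 within 10 Mb of Ccr7, the gene disrupted in the knock-out mice of the study. They are the distinct non-control probes whose mm8 position starts at most 10 Mb to either side of a centre set at Ccr7, out of 41174 distinct probes on the array. Ccr7 itself was left out, as were Tbx21, Top2a, Cdc6, Ikzf3, Dhx58 and the genes whose names start with Stat, Psm, Rpl, Nduf or Atp5, which removed 36 of 681 probes. The 645 probes carry 443 gene names. The choice rests on position and name, and it was made with earlier results of these data known.

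RNA came from B cells sorted by flow cytometry from peripheral lymph nodes and processed without culture. Wild-type C57BL/6J mice were compared with B6.129P2(C)-Ccr7tm1Rfor/J mice, which are of a B6 background with Ccr7 disrupted by gene targeting and were otherwise not modified or treated, as far as the labels say. The sources used here do not give the age of the mice. Each genotype had 6 sorted samples, pooled in groups of 3, and each of 2 two-colour arrays held 1 wild-type and 1 knock-out pool. The knock-out pool carried Cy5 on array 1 and Cy3 on array 2, so n = 2 pool pairs, with the dye turned between them. Whether the sorted samples came from separate mice is not stated. The p-values rest in part on the difference between the 2 arrays, where pool and dye are mixed. They rest mostly on a spread pooled over probes, and not on a spread between single mice.

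A targeted allele is usually made in embryonic stem cells of one mouse strain and then crossed for many generations into another. A stretch of donor chromosome around the target is inherited with it, and genes on that stretch can differ from the recipient strain in sequence or in regulation whatever the targeted gene does. On an array, a change in the amount of a transcript reaches all probes that bind it. A base difference under a probe changes how well that probe binds and leaves the other probes of the gene as they were. A change in splicing, in promoter or in polyadenylation site can also reach some probes of a gene and not others, so probes that disagree do not tell these apart. The strain name records another strain beside B6 as donor. The sources used here do not say how long the donor stretch is in these mice, and the donor sequence under the probes was not tested.

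All values below are log2 ratios of knock-out over wild-type, or differences between such ratios, unless an intensity is named. A probe was kept for testing if the same genotype, either one, gave a signal well above background on each array, and 451 of the 645 probes (319 gene names) were kept. Of these 451, 406 were above background in all 4 channels. The other 194 were not tested, and 145 of them were above background in no channel. All probes are 60 bases long, and the median GC content was 45.0% in the kept probes of the window and 41.7% over all kept probes of the array.

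The results turn on the probes of 5 genes. Their first 30 bases, 5′ to 3′, are printed here so that the probes that disagreed within a gene, and those that moved without a partner, can be told apart. In the Myl4 lines, capitals mark the 17 bases that both printed stretches share.
Plekhh3, its only probe: cccgagggcagcaatgggtgtggacagttt
Lsm12, dimmer probe: gctgatgacagtttgtatgtgctcagccaa
Lsm12, brighter probe: acattgtagtcatggaagaagttgttatta
Smarce1, dimmer probe: cgtttccagaggaaccaccgtctcatcagt
Smarce1, brighter probe: ctcaagactcgagatcccatagatcagagc
Plcd3, its only probe: agtgagagagaggaccatgattggtgtcct
Myl4, upstream probe: gggcaaacccaagCCTGAAGAGATGAGTTC
Myl4, downstream probe: CCTGAAGAGATGAGTTCcaagacactggac

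The Plekhh3 probe lies at chr11:100978794-100978853 on the minus strand of mm8. The Lsm12 probes lie at chr11:101978964-101979023 (dimmer) and chr11:101981488-101981547 (brighter), and the Smarce1 probes at chr11:99031276-99031335 (dimmer) and chr11:99025272-99025331 (brighter), all on the minus strand. The Plcd3 probe lies at chr11:102886710-102886769, also on the minus strand. The Myl4 probes are on the plus strand at chr11:104400198-104400568 and chr11:104400211-104400581. These 2 positions span 371 bases each, more than the length of the probe, so the files place each Myl4 probe across a gap in the genome. No mm8 gene annotation was used here, so the exon or untranslated region under a probe is not given.

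The arrays behaved as follows as a whole. Spots well above background made up 68.2% in the knock-out and 63.1% in the wild-type channel of array 1. On array 2 these shares were 58.4% and 68.8%, and no spot was saturated. The probe of Ccr7, the targeted gene, gave ratios of -1.11 and -0.74, lower in the knock-out on both arrays (mean -0.93 ± 0.15 (SE), limma adjusted p = 0.104). Its log2 intensity in the knock-out pools was 11.44 and 11.66, above background on both arrays, against 12.55 and 12.40 in the wild-type pools. Whether this probe lies in the part of the gene that the allele lacks was not looked up, so it does not check the labels. B-cell markers (Cd79a, Cd79b, Ms4a1, Cd22, Pax5) were above background in all 4 channels, with mean log2 intensities of 13.64 to 16.54. The range was 6.92 to 8.52 for Cd3d, Cd3e and Cd8a of T cells, 6.62 to 12.44 for Itgam, Adgre1 and Lyz2 of myeloid cells and 6.44 to 7.66 for Col1a1, Col1a2 and Pdpn of stroma, where Pdpn was above background in no channel. Trac was not matched to a probe. None of the 13 tested markers passed the test between genotypes (lowest limma adjusted p = 0.107, for Pax5). Mean ratios were below 0 for Pax5 (-0.82), Adgre1 (-0.71), Cd3d (-0.60), Cd8a (-0.39), Itgam (-0.26) and Cd79b (-0.034). They were above 0 for Col1a2 (0.39), Lyz2 (0.31), Cd22 (0.30), Ms4a1 (0.26), Cd79a (0.17), Col1a1 (0.089) and Cd3e (0.029). The part of these markers in the results below was not tested.

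Across the window most genes gave nearly the same signal in knock-out and wild-type B cells, and the 2 probes that passed the test were both higher in the knock-out. They belong to Plekhh3 and Lsm12, and lie 2.02 and 3.02 Mb from the centre of the window. None of the 451 passed in the lower direction. Over the array, 0.0693% of 25975 kept probes passed in the higher direction and 0.05% in the lower one. With counts this small, the share of 2 of 451 rests on single probes. In pooled cells, fewer cells that express a gene and less RNA per cell cannot be told apart.

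Looser counts were made in both directions. At an unadjusted p of 0.05, 20 window probes (4.43%) were higher, against 3.7% of all kept probes. In the lower direction there were 28 (6.21%), against 6.13%. On both arrays alike, 125 window probes (27.7%) were above 0 and 130 (28.8%) below it, against 25.2% and 30% of all kept probes. A ratio at least 0.5 above 0 on both arrays was seen at 6 window probes (1.33%), against 0.47% of all kept probes, and one at least 0.5 below 0 at 6 (1.33%), against 0.62%. The 6 higher ones are of Plekhh3, Lsm12, Spag9, Nme1 and Myl4, whose 2 probes overlap, and the 6 lower ones of Plcd3, Smarce1, Tom1l1, Tanc2, Tac4 and Kpnb1. The median ratio of the window was 0.0016, and that of all kept probes -0.0073. The median absolute ratio was 0.116 in the window and 0.114 over the array. The plot of ratios by position shows a narrow band around 0 along the whole window, with single probes standing out of it.

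**Figure D1:**
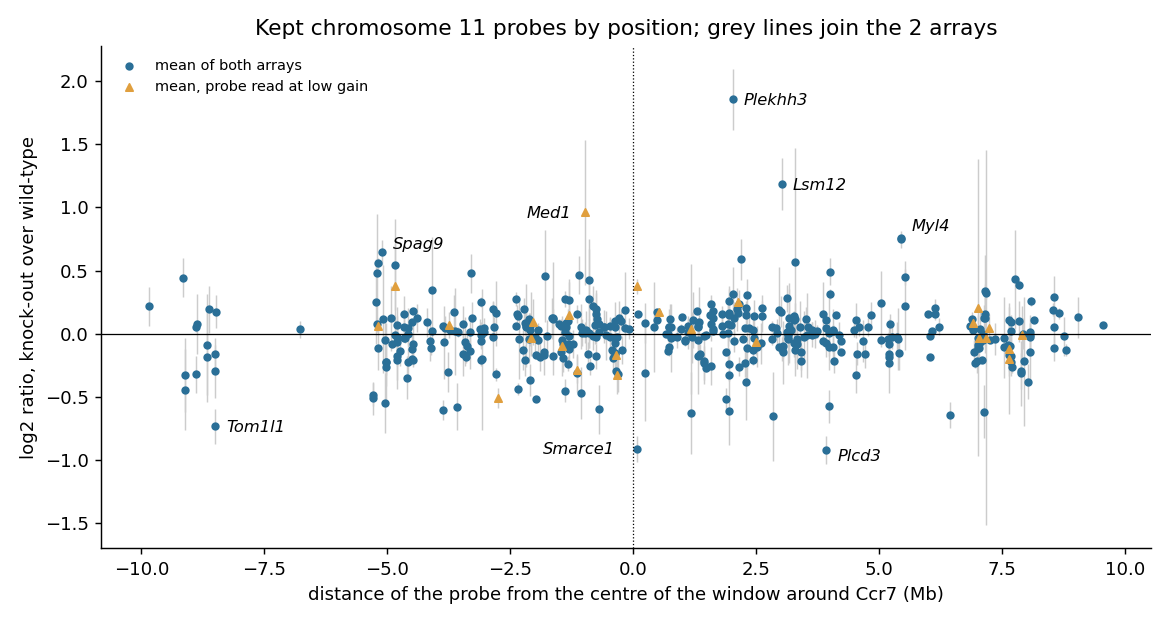
Mean knock-out over wild-type log2 ratio (vertical axis) of each of the 451 kept probes by its distance in Mb from the centre of the window around Ccr7 (horizontal axis); grey lines join the values of the 2 arrays, and triangles are probes with a channel read at low gain. Plekhh3 at 1.86 and Lsm12 at 1.19 are the 2 probes that passed the test, and Plcd3 at -0.92 and Smarce1 at -0.91 are the lowest.

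The window was set against the neighbouring stretch, the 397 kept probes that lie 10 to 20 Mb from the same centre. There the median was -0.0099, and at an unadjusted p of 0.05 27 probes (6.80%) were higher and 39 (9.82%) lower. A ratio of at least 0.5 on both arrays was seen above 0 in 2.27% and below 0 in 3.02% of them. Over the remaining 1221 kept probes of chromosome 11 the median was -0.0077, with 55 higher (4.5%) and 61 lower (5.0%) at that threshold. Over the other chromosomes the median was -0.0075, and these shares were 3.59% and 6.12%. The neighbouring stretch therefore had larger shares in both directions than the window, a description that was given no test. Within the window, the 330 kept probes up to 5 Mb from the centre had 12 higher (3.6%) and 20 lower (6.1%). The 121 probes beyond that had 8 of each (6.6%). The 198 probes on the side of lower coordinates had 9 higher (4.5%) and 17 lower (8.6%), and the 253 on the other side 11 of each (4.3%). By the adjusted test, 2 of the 397 probes of the neighbouring stretch passed in the higher direction and 2 in the lower one. In the window these counts were 2 and 0 of 451. A 2-fold ratio in one direction on both arrays was reached by 3 probes of that stretch and by 1 of the window.

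Plekhh3 gave the widest difference of the window. Its product carries pleckstrin homology, MyTH4 and FERM domains, of the kind that bind membrane lipids and the cytoskeleton. Its log2 intensity was 6.78 in the wild-type and 8.88 in the knock-out pool on array 1, and 6.63 and 8.24 on array 2. All 4 channels were above background, and both knock-out pools lay above both wild-type pools. The ratios were 2.10 and 1.61, with a mean of 1.86 ± 0.16 (SE), a 3.62-fold higher signal (limma adjusted p = 0.0131). It was the 1 window probe that reached a 2-fold ratio on each array in one direction, against 0.108% of all kept probes.

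Plekhh3 has a single probe on the array, so no second probe could be set beside it. The wild-type signal was dim, where the offset of 50 in the background correction narrows the ratio. With an offset of 10 the ratio was 2.38, and in the scanner program's own log ratio 3.16. The call was lost without background subtraction (adjusted p = 0.0805), with the log ratio of the scanner program (0.109), with the deposited value table (0.0579) and with the channels fitted separately (1), and it held under the others (0.000341 without low-gain probes, for example).

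The genes beside Plekhh3 gave smaller ratios. Tubg2, a gamma-tubulin of the centrosome whose probe starts 1.22 kb away, had ratios of 0.10 and 0.53 (adjusted p = 0.555). Its relative Tubg1, on the same side, had 0.051 and 0.089. On the other side, Ccr10, a chemokine receptor that guides antibody-secreting cells to mucosa, was not tested for lack of signal, and its values were 0.029 and 0.092. The kept probe of Cntnap1, a protein of myelinated nerve, had a mean of 0.13, and Ezh1, which methylates histone H3, a mean of -0.061. No neighbour within 50 kb passed the test.

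Lsm12, which encodes an RNA-binding protein of the Sm-like family, has 2 kept probes that gave different answers. Its dimmer probe read log2 intensities of 8.45 (wild-type) and 9.42 (knock-out) on array 1 and of 7.53 and 8.92 on array 2. The knock-out was higher on each array, with ratios of 0.98 and 1.39, a mean of 1.19 ± 0.15 (SE) or 2.27-fold (limma adjusted p = 0.0458). Its brighter probe, which starts 2524 bases away, read 11.71 and 11.49 on array 1 and 11.38 and 11.35 on array 2. There the ratios were -0.21 and -0.023, slightly below 0 on both. The call of the dimmer probe was lost under 6 of 9 other settings of the fit, with adjusted p values from 0.0046 to 1 over all of them.

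Smarce1 showed the opposite arrangement close to the centre of the window. It encodes a DNA-binding subunit of the SWI/SNF (BAF) chromatin remodelling complex, and its dimmer kept probe lies 0.0713 Mb from the centre. That probe read 10.06 in the wild-type and 9.04 in the knock-out on array 1, and 10.07 and 9.26 on array 2. The ratios were -1.02 and -0.81, with a mean of -0.91 ± 0.14 (SE), lower in both knock-out pools but not past the test (limma adjusted p = 0.0938). The brighter probe, 6004 bases away, read 13.65 and 13.97 on array 1 and 13.61 and 14.04 on array 2, with ratios of 0.32 and 0.44. Thus the knock-out pools were lower at one probe and higher at the other, on each array. The brighter probe carried the low-gain flag, and the other 2 probes of the gene were above background in no channel.

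**Figure D2:**
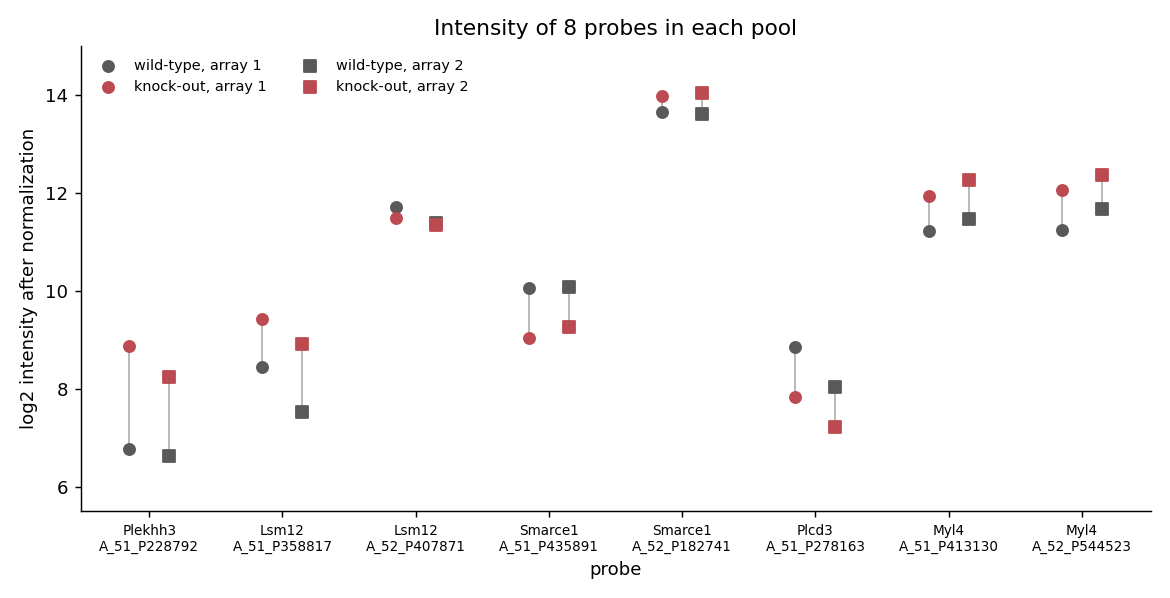
Normalized log2 intensity (vertical axis) of 8 probes (horizontal axis) in each pool; circles are array 1 and squares array 2, grey marks are wild-type and red marks knock-out, and lines join the 2 pools of an array. The knock-out lies above the wild-type on both arrays at Plekhh3, at the dimmer Lsm12 probe and at both Myl4 probes, and below it at the dimmer Smarce1 probe and at Plcd3.

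The difference between 2 probes of a gene was tested directly, by subtracting the ratio of the brightest kept probe from that of each other kept probe. This gave 132 pairs from 97 genes in the window and 8137 pairs over the array. No pair passed in the window or on the array (0%) with limma. At an unadjusted p of 0.05, 12 window pairs (9.09%) differed, against 8.75% of all pairs, with the other probe lower in 6 and higher in 6. Within 5 Mb of the centre 11 of 89 pairs (12.4%) differed by this count, and farther out 1 of 43 (2.33%). Of the 123 pairs that lie 10 to 20 Mb from the centre, 12.2% did.

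The wide end of the range held 2 window pairs. Smarce1 differed by -1.33 and -1.25 on the 2 arrays (mean -1.29 ± 0.18 (SE), limma adjusted p = 0.165). Lsm12 differed by 1.19 and 1.42 (mean 1.30 ± 0.18, limma adjusted p = 0.165). These 2 pairs had the lowest and second lowest p of all 8137 pairs. They were also 2 of the 5 pairs on the array (0.0614%) whose difference was at least 1 in the same direction on both arrays. A difference of at least 0.5 on both was seen in 5 window pairs (3.79%), against 1.71% of all pairs and 4.88% of those 10 to 20 Mb from the centre.

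Both pairs passed where the fit was limited to pairs whose first listed coordinates lie at least 60 bases apart. The probes of neither pair share sequence, though 1 window pair in this fit, of Npepps, still shares 34 bases. Of 7902 such pairs, 11 (0.139%) then passed, and 2 of these were among the 128 in the window (limma adjusted p = 0.0196 for Smarce1 and for Lsm12). Without probes read at low gain, Lsm12 passed (adjusted p = 0.0137) and Smarce1 could not be fitted, since its brighter probe is one of them. Under the other settings no window pair passed.

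**Figure D3:**
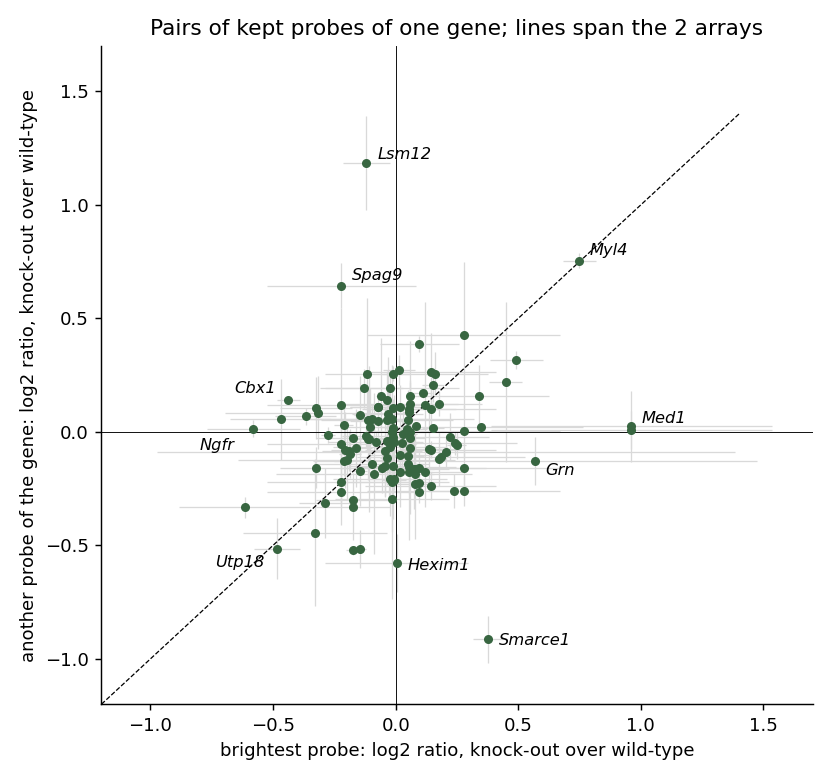
Mean log2 ratio of the brightest kept probe (horizontal axis) against that of another kept probe of the same gene (vertical axis) for the 132 pairs of the window; lines span the values of the 2 arrays and the dashed line marks equal ratios. Lsm12 lies far above the line and Smarce1 far below it, while Myl4, whose 2 probes overlap, lies on it at 0.75.

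The next widest pair differences had no call. Spag9, a scaffold of JNK signalling, has 6 kept probes. One of them, the farthest from the brightest, had ratios of 0.74 and 0.55, whereas the means of the other 5 lay between -0.27 and 0.12. The pair differed by 0.66 and 1.07 (adjusted p = 0.388). Med1, the Mediator subunit that contacts nuclear receptors, had 0.39 and 1.53 at its brightest probe, which was read at low gain, and means of 0.0069 and 0.025 at the other 2. Cbx1, which encodes a heterochromatin protein, had -0.49 and -0.39 at the brighter probe and 0.13 and 0.15 at the dimmer one. The 2 probes thus lay on opposite sides of 0 on both arrays, with a difference of 0.58 (adjusted p = 0.489).

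Further pairs of this kind were smaller or less alike on the arrays. Ngfr, a receptor for neurotrophins, had a mean of -0.58 at the probe printed 10 times and of 0.014 at the other. Becn1, needed to start autophagy, had 0.24 at the brighter and -0.26 at the dimmer probe. Hexim1, an inhibitor of the elongation kinase P-TEFb, had 0.0042 and -0.58, and Cdk12, a kinase of RNA polymerase II, 0.28 and -0.26. Fbxl20 (0.52), Lrrc46 (0.44), Gosr2 (0.43) and Krt10 (0.40) had a higher ratio at the other probe, as did Mbtd1 (0.37) and Cdk5rap3 (0.32). Lasp1, Atp6v0a1, Smurf2, Kpnb1 and Ube2z had a lower one, by -0.38, -0.37, -0.36, -0.35 and -0.31. The adjusted p of these pairs was at least 0.489.

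Counted by gene, 13 of the 97 genes with at least 2 kept probes (13.4%) had a probe above 0 on both arrays and another below 0 on both. Over the array this held for 18.3% of 5631 genes. The 13 include Smarce1, Lsm12, Spag9, Cbx1, Becn1, Cdk12 and Nr1d1, which encodes a circadian repressor. In 9 genes (9.28%), Myl4 and Hexim2 among them, every kept probe was above 0 on both arrays, against 7.12% over the array. In 7 genes (7.22%), Utp18, Kpnb1, Msl1, Mrpl45 and Retreg3 among them, every kept probe was below 0 on both, against 9.86% over the array.

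Myl4 has 2 overlapping probes that gave nearly the same ratio. It encodes a myosin light chain of the embryonic and atrial heart. The upstream probe had ratios of 0.82 and 0.68 and the downstream probe 0.72 and 0.79, and the means were 0.75 ± 0.13 (SE) and 0.75 ± 0.13. In each the 2 knock-out pools were above the wild-type pool of their array, but neither passed (limma adjusted p = 0.137 and 0.133). The probes share 47 of their bases, as the capitals above show in part, so they are not independent readings. Itgb3, the next gene along and the integrin chain of platelets, had ratios of 0.38 and 0.52 at its brighter probe and 0.57 and -0.13 at the other.

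Plcd3, a phospholipase C that cleaves membrane phosphoinositides, had the lowest mean of the window. Its probe read 8.86 in the wild-type and 7.83 in the knock-out on array 1, and 8.03 and 7.22 on array 2. The ratios were -1.03 and -0.81, with a mean of -0.92 ± 0.14 (SE), lower in the knock-out on both arrays but not past the test (limma adjusted p = 0.0938). It passed in 3 alternatives, of which the widest ratio was -1.12, with an offset of 10 (adjusted p = 0.0352).

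None of the remaining members with wide ratios passed the test. Among those above 0 on both arrays, Aoc2, a copper amine oxidase, had 0.75 and 0.43. Nme1, a nucleoside diphosphate kinase, had 0.51 and 0.60, and its neighbour Nme2 had 0.11 and 0.016. Hexim2, the relative of Hexim1, had means of 0.49 and 0.32 at 2 probes that share 13 bases. Below 0 on both arrays, Tom1l1, an adaptor of endosomal sorting, had -0.60 and -0.87, and Dusp3, a MAP kinase phosphatase, -1.01 and -0.30. Tanc2, a scaffold of synapses, had -0.75 and -0.54, and Tac4, which encodes a tachykinin made in blood cells, -0.52 and -0.69. Retreg3, a receptor for autophagy of the endoplasmic reticulum, had means of -0.62 and -0.33 at its 2 probes, and Grb7, an adaptor of receptor tyrosine kinases, a mean of -0.60.

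**Figure D4:**
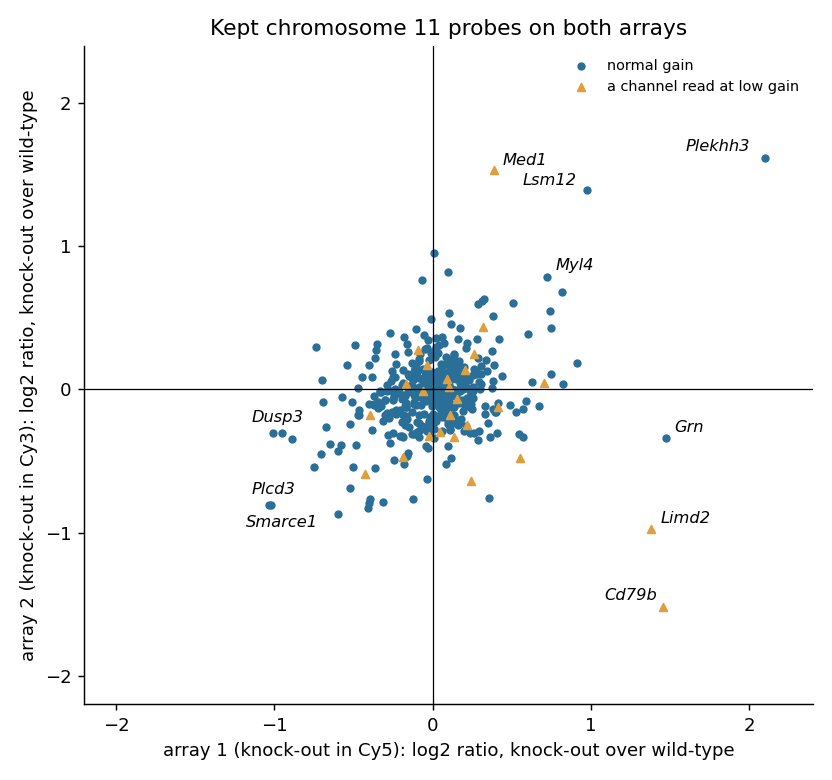
Knock-out over wild-type log2 ratio on array 1 (horizontal axis) and array 2 (vertical axis) for the 451 kept probes; triangles are probes with a channel read at low gain. Plekhh3, Lsm12 and Myl4 lie in the upper right and Plcd3 and Smarce1 in the lower left, whereas Cd79b and Limd2, both read at low gain, lie in the lower right.

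The 2 arrays ranked the window probes with a Spearman correlation of 0.218 over 451 probes, and all kept probes of the array with 0.175. These correlations are across probes, which share the same 4 pools and are not independent replicates. Probes with a channel read at low gain are a part of the scatter. Of the 25 kept in the window, 13 (52.0%) had opposite signs on the 2 arrays, against 43.0% of the other 426. Cd79b, a signalling chain of the B-cell receptor, had 1.45 on array 1 and -1.52 on array 2, and Limd2 had 1.38 and -0.97 at its brightest probe. In both genes the Cy5 channel was brighter on each array, whichever genotype it held. The scatter between spots of one probe was smaller. For the 7 window probes printed 10 times, the SD of the ratio over spots was 0.028 to 0.153 within an array. Ngfr had -0.39 on array 1 and -0.77 on array 2, with spot SDs of 0.028 and 0.038, so its arrays differed by more than its spots.

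In 1 Mb bins, small medians on both sides of 0 were seen. Of the 20 bins, 16 held at least 10 kept probes, with medians from -0.12 to 0.055. More probes were above 0 on both arrays than below in 7 of these bins, fewer in 8, and 1 had equal numbers. The 6 neighbouring bins from 1 Mb before the centre to 5 Mb beyond it all had medians above 0, from 0.0041 to 0.051, with more probes above 0 than below in 3 of them and fewer in 3. Over the 961 other 1 Mb bins of the genome with as many kept probes, the medians ranged from -0.31 to 0.22.

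**Figure D5:**
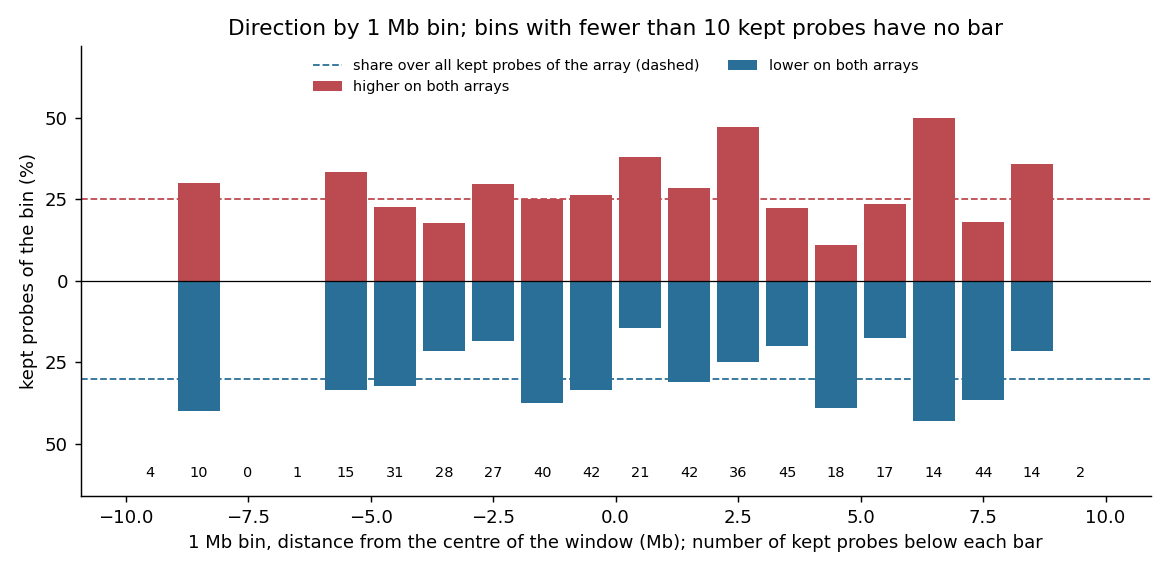
Share of kept probes above 0 on both arrays (red, upwards) and below 0 on both (blue, downwards) in each 1 Mb bin by distance from the centre of the window; the number of kept probes stands under each bin, and dashed lines mark the shares over all kept probes (25.2% and 30%). Bars of the 16 bins shown cross the dashed lines in both directions, from 11.1% to 50% above 0 and from 14.3% to 42.9% below it.

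On the side of lower coordinates, the bin 10 to 9 Mb from the centre kept 4 probes, with Pctp highest (0.44) and Tmem100 lowest (-0.44). The bin 9 to 8 Mb away had the lowest median of the bins with 10 probes, -0.12, with 3 above 0 and 4 below on both arrays and Tom1l1 lowest. The next 2 bins kept 0 and 1 probe. In the bin 6 to 5 Mb away, 5 of 15 kept probes were above and 5 below, and some probes close together had opposite signs. Utp18, a factor of small ribosomal subunit assembly, had -0.51 and -0.48 at its 2 probes, whereas Nme1 and the highest probe of Spag9, farther along, had 0.56 and 0.64. The other 5 Spag9 probes had means from -0.27 to 0.12. Between Utp18 and Nme1, Mbtd1 had means of 0.25 and -0.12 and Nme2 0.061. Between 5 and 3 Mb, medians were -0.023 and 0.011, and the named extremes were Gngt2, a G-protein gamma chain (0.48), Rsad1 (-0.35) and Tac4 (-0.61). Between 3 and 2 Mb the median was 0.055, with 8 above and 5 below, and Skap1, a T-cell adaptor, was highest at 0.27. Between 2 and 1 Mb it was -0.036, with 10 above and 15 below, from Stac2 (0.46) to Kpnb1, the nuclear import receptor importin beta (-0.52). In the last 1 Mb before the centre it was 0.011, with 11 above and 14 below, from Med1 to Grb7.

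On the other side, the first bin kept 21 of 52 probes, and both its highest (0.38) and its lowest (-0.91) were of Smarce1. The bin 1 to 2 Mb away had 12 above 0 and 13 below, with Mlx, a partner of glucose-sensing transcription factors, highest at 0.26. The bin 2 to 3 Mb away, that of Plekhh3, had 17 of 36 above (47.2%) and 9 below, with a median of 0.043 and Dusp3 lowest. The bin of Lsm12 and Plcd3 was even, with 10 of 45 above and 9 below. Between 4 and 5 Mb, 2 of 18 were above and 7 below, with Gosr2 lowest at -0.33. Between 5 and 6 Mb, Myl4 was highest and Kansl1 lowest (-0.23). The bin beyond it ran from Tlk2 (0.20) to Tanc2, with 7 above and 6 below of 14. Between 7 and 8 Mb the median was -0.041, with 8 of 44 above and 16 below. Between 8 and 9 Mb Cacng1, a calcium channel chain, was highest (0.29) and Nol11, a factor of ribosomal RNA synthesis, lowest (-0.38), and the outermost bin kept 2 probes.

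Within 0.5 Mb of the centre, 28 probes were kept, 7 above 0 on both arrays and 11 below, with a median of 0.0059. No probe there passed the test. Beside Smarce1 lie the nuclear receptor genes Rara (retinoic acid receptor, mean 0.046), Thra (thyroid hormone receptor, -0.073 and -0.16) and Nr1d1 (-0.16, 0.10 and 0.054). Msl1, of the complex that acetylates histone H4, has 4 kept probes, all below 0 on both arrays, with means of -0.30, -0.17, -0.028 and -0.33. Casc3, of the exon junction complex, had -0.46 and -0.18, and Med24, a Mediator subunit, -0.17 and -0.097. Wipf2, which binds the actin regulator WASP, had a mean of 0.10, Rapgefl1 0.12, Gjd3 0.19 and Tns4 0.037. The probe named Sfn, which is placed here over 54 of its 60 bases, had -0.20. Whether it reads a gene of this stretch was not tested. The means of Gsdma were -0.025 and 0.060. Krt222, the nearest keratin-like gene, had 0.15, the kept probe of Krtap3-1 had 0.41 and -0.30, and most keratin and keratin-associated probes there gave no signal.

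The genes of the window were also grouped by their known roles, and no probe of any group passed the test. The B-cell and lymphocyte group (25 genes listed, 22 with kept probes) had 29 kept probes, 6 above 0 on both arrays and 9 below, with a median of -0.022. Gngt2 (0.32 and 0.63) and the brighter probe of Itgb3 were above 0 on both arrays. Grn, which encodes progranulin, had 1.47 and -0.34 at one probe and -0.021 and -0.23 at the other. Ifi35, an interferon-induced gene, had 0.17 and 0.43, Skap1 0.22 and 0.33, and Map3k14, the kinase NIK of non-canonical NF-kB signalling, -0.13 and -0.31. Pecam1, an adhesion molecule of endothelium and leukocytes, had -0.11 and -0.11 at its probe printed 10 times, and Icam2, a ligand of the integrin LFA-1, 0.15 and -0.064.

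The transcription and chromatin group (26 genes listed, 25 with kept probes) had 52 kept probes, 10 above 0 on both arrays and 17 below, with a median of -0.011. At an unadjusted p of 0.05 there were 4 in each direction (7.69%), against 3.7% and 6.13% of all kept probes. The higher ones were of Med1, Cdk12 (0.75 and 0.11), Smarce1 and Kpna2, a nuclear import adaptor (0.42 and 0.35). The lower ones were of Smarce1, Hexim1 (-0.71 and -0.45), Cbx1 and Msl1. Smarce1 is thus in both counts. Brca1, which repairs DNA breaks, had a mean of 0.047 and Kat2a, a histone acetyltransferase, 0.14.

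The mitochondrial and translation group (15 genes) had 20 kept probes, 3 above 0 on both arrays and 10 below, with a median of -0.13. Over all kept probes the median was -0.0073, and 25.2% were above and 30% below. At an unadjusted p of 0.05, 1 probe of the group (5%) was higher and 3 (15%) were lower, against 3.7% and 6.13% of all kept probes. The 3 lower ones were both Utp18 probes and the Nol11 probe. The lowest members of the group were thus Utp18 and Nol11 (-0.52 and -0.24), and the highest was Nme1. Mrpl45, a protein of the mitochondrial ribosome, had means of -0.17 and -0.14, Cox11, a copper chaperone of cytochrome oxidase, -0.16, and Coasy, of coenzyme A synthesis, -0.24. Acly, which makes cytosolic acetyl-CoA, had 0.095 and -0.16.

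Most Hoxb and keratin probes were not kept. Of 15 Hoxb probes, 5 were kept, with means from -0.32 (Hoxb2) to 0.19 (Hoxb6). The kept probe of Hoxb2 was above background, and kept, through the wild-type pools only. With its dim knock-out signal set as given below, the wild-type was 1.24-fold higher. The probe of Hoxb6 with 0.19 was above background, and kept, through the knock-out pools only. They were 1.14-fold higher, the same as its measured ratio. Neither probe passed. Each was kept through the genotype where it was brighter, so its direction is not independent of the filter. For these fold values, which carry no error, the dim genotype was given a floor. It was set at the higher of its own signal and the lowest signal well above background on that array. Of 45 keratin and keratin-associated probes, 17 were kept, with a median of 0.040, and none reached an unadjusted p of 0.05. Of 32 probes for genes of other organs, 18 were kept. At that threshold 3 of the 18 (16.7%) were higher and 0 lower, against 3.7% and 6.13% of all kept probes. The 3 were both Myl4 probes, which overlap, and Scn4a, a sodium channel of muscle (0.37 and 0.27). Gfap, an astrocyte gene, was above background at none of its 3 probes, and Mapt, which encodes tau, had means of -0.044 and -0.082.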

How the data were processed

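Each of 2 two-colour arrays compared 1 pool of wild-type and 1 pool of knock-out B-cell RNA (3 sorted samples per pool, 20 ng of total RNA), with the dyes swapped. The deposited spot intensity values are scanner output that the authors obtained with Agilent Feature Extraction 9.5.3.1, per the file headers, which name mm8 for probe positions. Both arrays lay on 1 slide and were scanned at 2 gains; very bright spots were rescaled from the lower gain and are marked so. A log10 ratio (Cy5 over Cy3) stands beside them, background-subtracted and dye-normalized in the program per the file headers. The deposited value table holds log2 ratios. With knock-out over wild-type as direction it equalled the scanner ratio within 0.001 at 42512 and 42515 of 43379 spots, the others being low-gain spots, and the sources used here do not say how these were made. Each column's median was 0.

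With limma 3.58.1 (R 4.3.3), intensity values were corrected by normexp (offset 50) and log2 ratios by loess within each array (span 0.3, weight 0 for control spots). Spots with outlier flags were left out and spots of a probe averaged. A probe with several spots counted as above background where at least as many of its spots were above it as were not. Ratios were fitted with lmFit and eBayes over all kept probes, with +1 or -1 for the dye orientation, and adjusted by Benjamini-Hochberg over all of them (threshold 0.05, two-sided). The fit has 1 residual and 6.97 prior degrees of freedom (8.37 for pairs), so errors are mostly pooled over probes, and the number of arrays limits precision. Pairs took other kept probes of one file gene name, on the same chromosome with starts (the first coordinate listed) under 1 Mb apart, against the brightest. The fits were tested on simulated data. Of the 645 probes, 416 were named by RefSeq accession, 99 by current symbol and 31 by an older synonym, and 99 kept the name in the file.

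The members, gene groups and tests were chosen with earlier results of these data known. Named are Plekhh3, called members, the widest ratios and pair differences of one sign on both arrays in each direction, kept members within 0.5 Mb of the centre, the ends of each 1 Mb bin and the leading or well-known members of each group; transcripts without a gene symbol are left unnamed, and 1 of the cell type markers is not reported here. Alternatives covered the background correction, the normalization, the scanner program's ratio, the value table, filters, the prior, separate channels, 1 probe per gene and each array alone.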

Additional observations from a re-analysis of the deposited data

How the results depend on the processing

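Of the window probes, 2 passed the test as reported. The count was 0 without background subtraction, with the log ratio of the scanner program, with the deposited value table and with separate channels (no replicate block). It was 1 with median centring, with a filter that asked for signal in all 4 channels and with 1 probe per gene, 6 without low-gain probes and 7 with an intensity trend and robust prior. With an offset of 10 it was 3. Over the array 31 of 25975 kept probes passed as reported, 46 with an offset of 10 and 124 with the trend and robust prior. Without low-gain probes 118 of 24143 passed, with signal in all 4 channels 23 of 23631, and with 1 probe per gene 9 of 17759. Median centring gave 14 over the array, no background subtraction gave 3, and the remaining settings gave 0. Pairs of the window passed in 1 case without low-gain probes, against 10 of 7264 pairs over the array. With first coordinates at least 60 bases apart 2 passed, against 11 of 7902 over the array. The number of window probes at least 2-fold on both arrays was 1 as reported, 3 with an offset of 10, 2 with median centring and 5 with the scanner program's log ratio or the deposited value table. On a single array it was 4 without replicate 1 and 7 without replicate 2. The window median was -0.14 with median centring, which moved the median of all kept probes to -0.16, and 0.037 within 1 Mb of the centre. Both dim probes of Med1 changed sign: the nearer to the brightest was -0.28 and the other -0.099 with median centring, and on the arrays alone they were 0.090 and -0.13 (without replicate 2) and -0.077 and 0.18 (without replicate 1). Among the other probes and pairs rerun (25 probes and 5 pairs in all, those with the widest values), none changed sign; narrower ratios were not rerun one by one. The causes were not tested.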
